A study of Mus musculus with 10 samples.

Results

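S100g, S100a5, Galnt15, Aldh3a1, Npy, Fgf9, Cytl1, Dmkn, Sbsn and Clu are 10 genes that earlier work on these data picked out as nearly absent from the young tendon enthesis and present in the adult one. All 10 were found by symbol among the 31053 genes of the droplet files, and all 10 were among the 13722 genes with at least 100 unique molecular identifiers (UMIs, 1 per captured RNA molecule) over the 3 droplet libraries. The label of an adult-only group fits few of them. S100g, Galnt15, Npy and Dmkn were each below 2 CPM (the gene's UMIs scaled to 1000000 UMIs in the library) at postnatal day 11 (P11), whereas Clu, Cytl1, Sbsn, Fgf9, Aldh3a1 and S100a5 were already measured there at 4.72 to 301 CPM, and Cytl1 was higher at P18 than at P56. Of the first 4, only S100g and Galnt15 were still below 2 CPM at P18, where Npy was at 6.16 CPM and Dmkn at 8.01 CPM, against 12.9 CPM for Dmkn at P56. The P11 and P56 values chose the members, so they are given here as a description with no test.

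The enthesis is the graded attachment of tendon to bone, in which tendon fibroblasts pass into unmineralised and mineralised fibrocartilage. The members belong to several families: small calcium-binding proteins of the S100 family (S100g, best known from calcium uptake in the intestine, where vitamin D induces it, and S100a5), enzymes (Galnt15, which starts the addition of sugars to serine and threonine of secreted proteins, and Aldh3a1, an aldehyde dehydrogenase abundant in the cornea), secreted signals (Npy, a peptide of sympathetic nerves, Fgf9, a fibroblast growth factor of skeletal and joint tissue, and Cytl1, a small cytokine-like protein of cartilage), secreted proteins of the upper epidermis (Dmkn, dermokine, and Sbsn, suprabasin) and Clu, or clusterin, an extracellular chaperone that binds misfolded proteins and lipoproteins.

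The droplet data were 3 libraries of whole supraspinatus tendon entheses of C57BL/6 mice at P11, P18 and P56, 1 pooled library per age, sorted as cells negative for Cd45 (a marker of leukocytes) and for DAPI (which stains dead cells). The plate data were 7 plates of 96 wells, 1 at each of P7, P11 and P14, then P18 and P21, then P28 and P42, from supraspinatus entheses of Gli1CreERT;Ai14 mice given tamoxifen at P5 and P7. In these mice a tamoxifen-activated Cre under the Gli1 gene switches on a red reporter, so that cells that expressed Gli1, a target of hedgehog signalling, and their descendants are marked; the protocol does not make clear if sorted cells were red or not red, and P14 is missing among the ages it gives. No plate was made at P56 and no droplet library at P28 or P42. All mice were otherwise wild type as far as the labels say. With 1 pooled library per age there is no replicate at any age, and every interval below covers counting error only.

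After filtering, 2882, 5163 and 4920 cells with medians of 13434, 7160 and 6057 UMIs were used at P11, P18 and P56. Against the Cd45-negative sort, leukocyte-like clusters made up 15.1%, 32.8% and 0% of cells, and mesenchymal classes 76.6%, 28.2% and 83.9%. A further 38.8% of P18 cells were in 5 unnamed clusters with genes of blood-forming lineages (Rag1, Vpreb1, Dntt, Mpo and Elane among them) in their leading genes. Levels over the mesenchymal classes alone are therefore given beside those over all cells for S100g, Galnt15, Cytl1, Dmkn and Clu. Library levels of the other members and of context genes are over all cells unless stated. The mesenchymal classes are the tendon fibroblast-like, connective-tissue fibroblast-like, joint lining-like, chondrocyte-like, osteoblast-like and other mesenchymal-like clusters. No chondrocyte-like cell was found at P56 against 193 at P11 and 497 at P18. Xist, the RNA of the silenced X chromosome of females, was at 794, 317 and 0.306 CPM, and the Y-linked Ddx3y at 12.7, 49.0 and 86.8 CPM, so the mix of sexes moved with age and the 2 cannot be told apart. The libraries shared 3 to 8 cell barcodes, pairwise.

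S100g lies at chrX:162961992-162964599 (mm10, minus strand), inside Ctps2 on the opposite strand, with which it shares 0 exonic bases of 480; Ctps2 itself was at 20.4, 22.1 and 17.5 CPM at P11, P18 and P56. S100a5 lies at chr3:90608523-90611780, between S100a4 and S100a6. Galnt15 lies at chr14:32028989-32062197, Fgf9 at chr14:58070547-58112720 and Clu at chr14:65968483-65981547. Aldh3a1 lies at chr11:61207537-61218421, 4995 bases from Aldh3a2. Npy lies at chr6:49822710-49829507 and Cytl1 at chr5:37735519-37739820. Sbsn (chr7:30751471-30756134) and Dmkn (chr7:30763756-30781063) are neighbours 7621 bases apart on the plus strand, next to a further epidermal gene, Krtdap. Sbsn shares 279 of its 3625 exonic bases with Tmem147os on the same strand, a transcript at 0.560, 0.288 and 0.667 CPM, and its count is uncertain over those bases. Galnt15 and Fgf9 overlap processed pseudogenes on the other strand. Whether the counting used strand is not given in the sources used here, so reads of an antisense partner cannot be told apart.

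RefSeq start sites (GRCm38.p6) were available for 8 members. Sbsn and Dmkn are shown because they were the neighbouring pair found in the same cells, and S100g because its P56 to P11 ratio was the highest of the members. Each line is the 250 bases before the start, 5′ to 3′ on the gene's strand. Capitals mark matches, on either strand, to TGANTCA or AGGTCA (the core element of nuclear receptors, the vitamin D receptor among them). TGANTCA takes any base at N and is wider than the element of AP-1 factors, which is TGAGTCA or TGACTCA.
Sbsn (chr7:30751221-30751470, plus strand): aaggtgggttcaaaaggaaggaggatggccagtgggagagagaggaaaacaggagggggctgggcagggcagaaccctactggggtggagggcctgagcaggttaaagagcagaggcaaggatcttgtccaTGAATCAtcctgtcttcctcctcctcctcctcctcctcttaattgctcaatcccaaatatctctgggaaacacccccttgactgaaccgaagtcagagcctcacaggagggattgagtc
Dmkn (chr7:30763506-30763755, plus strand): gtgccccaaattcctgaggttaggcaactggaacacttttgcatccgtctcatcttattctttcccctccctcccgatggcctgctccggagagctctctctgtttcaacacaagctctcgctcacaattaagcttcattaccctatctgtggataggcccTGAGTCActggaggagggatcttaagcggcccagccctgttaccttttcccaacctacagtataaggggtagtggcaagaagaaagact
S100g (chrX:162964600-162964849, minus strand): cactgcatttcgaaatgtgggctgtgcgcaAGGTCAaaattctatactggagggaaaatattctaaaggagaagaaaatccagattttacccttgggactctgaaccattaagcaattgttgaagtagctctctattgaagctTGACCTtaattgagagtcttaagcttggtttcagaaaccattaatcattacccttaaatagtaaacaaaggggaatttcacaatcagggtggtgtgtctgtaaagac

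TGANTCA matched 119 bases before the Sbsn start and 89 before the Dmkn start, and 58 before that of Galnt15. These were 3 of 8 members, against 6.75% of all 32851 promoters of that length. The matched letters were TGAGTCA in Dmkn and TGACTCA in Galnt15, but TGAATCA in Sbsn, which is not the AP-1 element. The share of promoters with the AP-1 element alone is not given. AGGTCA matched 220 and 107 bases before the S100g start and 63 before that of Galnt15, where it overlaps the TGANTCA match, or 2 of 8 members against 14.0% of promoters. TATAAA matched 0 of 8 members (12.4% of promoters), CCAAT 2 of 8 (33.8%) and GGGCGG 2 of 8 (32.7%). These matches describe letters and not sites in use.

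Over all cells, 7 of the 10 members were at least 4-fold higher at P56 than at P11, and all 10 at least 2-fold. Among all genes with at least 100 UMIs, 2.21% were at least 4-fold higher and 8.03% at least 4-fold lower. The median log2 ratio was 2.36 over the members and -0.09 over all 13722 genes. Because the members were chosen on this contrast, nothing is read from the difference. Just inside the 4-fold threshold were Sbsn at 4.34-fold and Aldh3a1 at 4.68-fold, and just outside it Clu at 3.52-fold and Cytl1 at 3.27-fold. In the mesenchymal classes alone the count was again 7, against 1.94% of 12090 genes higher and 3.28% lower. Over all cells, the P18 level lay between those of P11 and P56 for 2 of the 7, Npy and Dmkn. In the mesenchymal classes it did so for 4 of the 7, S100g, Galnt15, Aldh3a1 and Npy, and Dmkn was lower at P18 than at P11. For S100g this rested on 11 P18 UMIs in 2 cells, 9 of them in 1 cell. The share of all genes with such a P18 level is not given, so nothing is read from these counts.

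**Figure D1:**
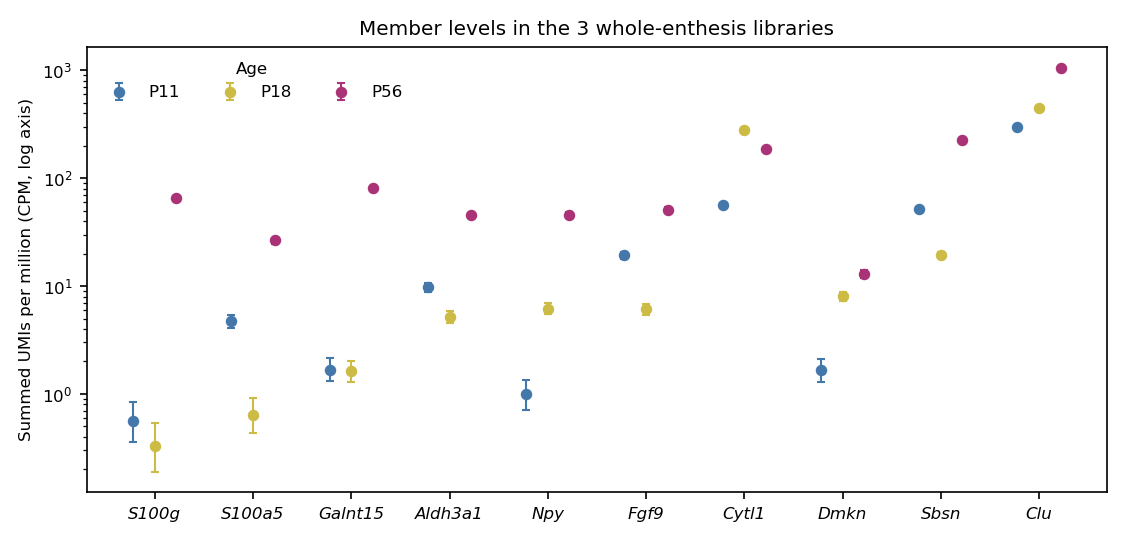
Level of each member in the 3 whole-enthesis libraries, in CPM summed over all cells used (log axis), with 1 point per library and exact Poisson 95% intervals for counting error. The P56 point is the highest for every member except Cytl1, and S100g, S100a5, Galnt15, Aldh3a1, Fgf9 and Sbsn have their lowest point at P18, where the intervals of S100g and Galnt15 overlap those of P11.

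Of the calcium-binding members, S100g had 23 UMIs (0.560 CPM) at P11, 16 UMIs (0.330 CPM) at P18 and 2340 UMIs (65.1 CPM) at P56. The P56 level was 116-fold that of P11 (95% interval 77.2 to 184) and the few young UMIs were concentrated: 14 of the 23 at P11 lay in 1 mural-like cell and 9 of the 16 at P18 in 1 other cell. Without the highest cell of each library the P56 to P11 ratio was 286. In the mesenchymal classes the levels were 0.246 CPM at P11 (8 UMIs in 8 cells), 0.686 CPM at P18 (11 UMIs in 2 cells) and, at P56, 73.3 CPM. S100a5 was at 4.72, 0.639 and 26.5 CPM, and was therefore lower at P18 than at P11 before the high value at P56. At P11, 84.0% of the S100a5 UMIs came from tendon fibroblast-like cluster 4, which led with Mfap4, Tnmd and Kera and held 684 P11 cells and none at P56.

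Of 12 other S100 genes with at least 100 UMIs, 0 were at least 4-fold higher at P56, against 2.21% of all genes. In lists this short, here and below, a count of 0 is near that share and nothing is read from it. Of the 12, 2 were at least 4-fold lower, against 8.03% of all genes, and the median log2 ratio was 0.55. Those lower were S100a8 (368, 24570 and 0.278 CPM at P11, P18 and P56) and S100a9 (329, 24997 and 0.0278 CPM), the calprotectin subunits of neutrophils, whose levels moved with the summed leukocyte markers (2008, 30123 and 7.87 CPM); the part of leukocytes in them was not tested. S100a4 and S100a6, on either side of S100a5, were 2.11-fold and 2.03-fold higher at P56 than at P11. Of 5 measured genes of vitamin D signalling and calcium transport, 0 were at least 4-fold higher; Calb2, which encodes the calcium-binding protein calretinin, was 4.97-fold lower at P56, and the vitamin D receptor gene Vdr was at 5.92 CPM at P11 and 2.98 CPM at P56.

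Among the enzymes, Galnt15 had 69 UMIs (1.68 CPM) at P11, 79 UMIs (1.63 CPM) at P18 and 2934 UMIs (81.6 CPM) at P56, which made the P56 level 48.6-fold that of P11 (38.2 to 62.6). It was the most widely detected of the low members, with a UMI in 1546 of 4920 P56 cells, and no cell held more than 12. Its near absence at P11 did not extend to endothelial-like cells: cluster 12, which led with Selp, Emcn and Cdh5, was at 52.0 CPM (43 UMIs, 68 cells) at P11 and 84.7 CPM (384 cells) at P56, and held 62.3% of all P11 UMIs of the gene. Endothelial marker genes summed to 119, 35.4 and 214 CPM in the 3 libraries (0 of 6 at 0), and their part in the Galnt15 level was not tested. In the mesenchymal classes, without those cells, Galnt15 was at 0.738, 4.80 and 86.4 CPM. Aldh3a1 was at 9.72, 5.15 and 45.4 CPM. Its young UMIs lay in connective-tissue fibroblast-like cluster 0 (52.1% at P11) and tendon fibroblast-like cluster 10 (30.3% at P11 and 59.2% at P18).

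Of 13 other GALNT genes with at least 100 UMIs, 0 were at least 4-fold higher at P56 and 3 at least 4-fold lower, with a median log2 ratio of -0.33. Among all genes, 2.21% were higher and 8.03% lower by that measure. The 3 lower were Galnt3 (0.804 and 0.139 CPM at P11 and P56), Galnt5 (5.26 and 1.28 CPM) and Galnt6 (3.65 and 0.0278 CPM, the latter 1 UMI). For Galnt6 the log2 ratio was -7.04 over all cells but 1.62 in the mesenchymal classes, where it was near the counting floor. Its lower level was thus not seen in those classes, and the part of other cells in it was not tested. Of 8 other aldehyde dehydrogenase genes, 0 were at least 4-fold higher and 1 lower: Aldh1l2, a mitochondrial enzyme of folate metabolism, was at 14.8 CPM at P11 and 1.95 CPM at P56. Aldh3a2, the chromosomal neighbour of Aldh3a1, was at 13.3 and 17.9 CPM.

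Of the secreted signals, Npy was at 0.998 CPM (41 UMIs), 6.16 CPM (299 UMIs) and 46.0 CPM (1656 UMIs) at P11, P18 and P56, with the P18 library between the others. A single P56 cell held 576 Npy UMIs, 34.8% of the total, and without the highest cell of each library the levels were 0.706, 5.01 and 30.1 CPM and the P56 to P11 ratio 42.6. Fgf9 was at 19.3, 6.08 and 51.2 CPM. In tendon fibroblast-like cells Fgf9 was at 46.1 CPM at P11 (almost all clusters 4 and 10) and 46.4 CPM at P56 (clusters 2 and 15), while cluster 6, a mesenchymal-like cluster described below that had 1 cell at P11, was at 168 CPM at P56. Cytl1 was at 57.0, 281 and 186 CPM, and in the mesenchymal classes at 71.8, 848 and 190 CPM, so that P18 was the highest library on either basis. At P18, chondrocyte-like cluster 5 held 59.8% of its UMIs (1197 CPM) and mesenchymal-like cluster 22 held 36.5% (4990 CPM). The latter led with Msmp and Smoc1 and had 6 of the 8 chondrocyte markers raised over other cells, with none of them among its leading genes. Neither cluster had a cell at P56, and chondrocyte marker genes summed to 11975, 12548 and 155 CPM in the 3 libraries (0 of 8 at 0); their part in the Cytl1 levels was not tested.

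No receptor gene on the ligands' lists was at least 4-fold higher at P56, but among all genes only 2.21% were, and 8.03% were at least 4-fold lower. Of 9 FGF9 relatives, receptors and feedback genes with at least 100 UMIs, 0 were at least 4-fold higher at P56 and 2 at least 4-fold lower: Fgfr2 (12.4 and 2.25 CPM) and Fgfr3 (10.5 and 2.59 CPM). Fgfr1, the FGF receptor gene with the highest P56 level, was at 207 and 200 CPM. For Npy, the receptor gene with the highest P56 level was Npy1r at 3.14 CPM at P11 and 4.92 CPM at P56. Dpp4, which encodes a peptidase that trims NPY, was at 48.0 and 56.2 CPM. Over all cells, neither of the 2 measured genes of that list differed 4-fold. In the mesenchymal classes alone, the log2 ratio of P56 to P11 for Npy1r was -2.01.

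Over all cells, Dmkn and Sbsn, the epidermal members, differed in their course. Dmkn was at 1.66, 8.01 and 12.9 CPM, and Sbsn at 51.6, 19.5 and 224 CPM, at P11, P18 and P56. Keratinocyte marker genes summed to 29.7, 17.4 and 24.7 CPM in the 3 libraries, of which Krt10 made up 25.1, 13.6 and 23.1 CPM; Krt5 had 0 UMIs in all 3 libraries and Krt14 2 UMIs, at P56 only, while Lor had 112, 141 and 25 UMIs and Krt1 23, 15 and 7 UMIs. No cluster was named from the keratinocyte markers, and the part of epidermal cells in these levels was not tested. Of the 3 other epidermal genes measured, 0 differed 4-fold, and Krtdap was at 1.36 CPM at P11 and 0.723 CPM at P56. Dmkn at P18 was carried by leukocytes and their kin: unnamed cluster 19 (leading genes Ctsg, Mpo and Elane) held 60.2% of its UMIs and leukocyte-like cluster 21 (Ms4a4c, Cd14) 37.0%. In the mesenchymal classes Dmkn was at 1.69, 0.436 and 14.3 CPM. There the log2 ratio of P18 to P11 for Sbsn was -0.18, and its P56 level was 4.08-fold that of P11. In those classes both genes were thus lowest at P18 and highest at P56. Sbsn at P11 lay in connective-tissue fibroblast-like cluster 0 (64.0%, 116 CPM) and in the 34 joint lining-like cells (329 CPM), whose marker genes include Prg4, the lubricin of joint surfaces.

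Clu was at 301, 445 and 1059 CPM in the 3 libraries, and in the mesenchymal classes at 374, 1341 and 1149 CPM, so that the order of P18 and P56 depended on which cells were summed. At P11 it was detected in 45.9% of cells. Of 6 measured receptors and lipoprotein partners of clusterin, 1 was at least 4-fold higher at P56 and 0 lower, against 2.21% and 8.03% of all genes. Apod, a lipid carrier, was the higher gene, at 64.2 CPM at P11 and 468 CPM at P56. Apoe was at 910 and 303 CPM. Tgfbr2 had the highest P56 level of the receptor genes on that list, at 120 CPM at P11 and 102 CPM at P56, and the lipoprotein receptor gene Vldlr was at 16.2 and 13.2 CPM.

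To compare detection between ages, each cell was thinned to 2000 UMIs, leaving out 64, 322 and 211 shallower cells at P11, P18 and P56. S100g was then detected in 1 of 2818 cells at P11 (0.0355%, exact Clopper-Pearson 95% interval 8.98e-04 to 0.198), 2 of 4841 at P18 (0.0413%) and 187 of 4709 at P56 (3.97%, 3.43 to 4.57). Galnt15 was detected in 0.355%, 0.331% and 14.3% of cells, Npy in 0.248%, 0.640% and 1.53%, and Dmkn in 0.319%, 0.516% and 0.658%. Sbsn was detected in 6.10%, 2.35% and 12.3%, and Clu in 23.9%, 18.7% and 45.4%. Cytl1 was detected in 3.16%, 5.91% and 2.95% of cells, so its P56 share was no higher than that at P11. Mural-like P56 cells were not the background planned at the outset and had among the lowest member levels. As a measure of free RNA, at the same depth they had S100g in 0 of 217 (which allows a share of up to 1.38%), Galnt15 in 2.30%, Sbsn in 0.922% and Clu in 14.7%. Each was below the share of all P56 cells, which depends on that choice of cells. Npy and Dmkn were also found in 0 of 217, and the Dmkn share of all cells is under the limit that this 0 allows. Endothelial-like P56 cells, the background planned at the outset, had S100g in 0.575%, Sbsn in 1.15% and Dmkn in 0.287% of 348 cells. In them Galnt15 (12.4%) and Clu (43.7%) were close to the shares of all P56 cells, and Npy (3.45%) and Cytl1 (10.3%) were above those shares. Without thinning, the shares of all P56 cells were 6.26% for S100g, 31.4% for Galnt15, 2.91% for Npy, 1.44% for Dmkn, 21.6% for Sbsn, 59.1% for Clu and 4.45% for Cytl1.

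Most cells carried few members. At 2000 UMIs per cell, at least 3 members were detected in 7 of 2818 cells at P11 (0.248%), 44 of 4841 at P18 (0.909%) and 372 of 4709 at P56 (7.90%). No cell had more than 6. Of the 372 P56 cells, 229 (61.6%) belonged to cluster 6 and 55 (14.8%) to cluster 2, and within clusters the share was highest in cluster 9, at 25 of 40 cells (62.5%), and 34.1% in cluster 6.

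**Figure D2:**
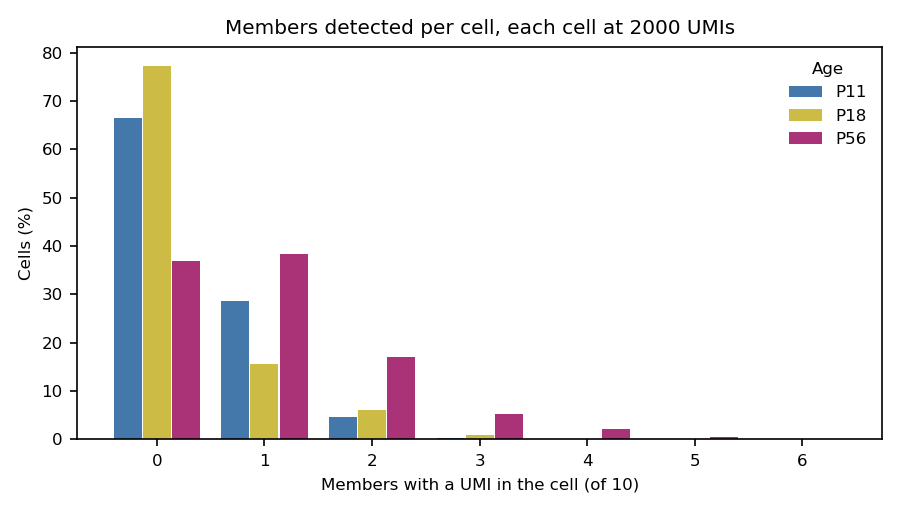
Number of members with a UMI per cell, as a percentage of the cells of each library, with every cell thinned to 2000 UMIs. Cells with at least 3 members make up 7.90% at P56, against 0.248% at P11 and 0.909% at P18.

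The P56 cells fell into 14 clusters of at least 20 P56 cells, built without the 10 members. Cluster 6 held 34.9% of all member UMIs at P56, the largest share of any cluster, and 27.1% without Clu. It had 688 P56 cells and 1 cell from the other ages, had Il33, Rspo1 and Egln3 among its leading genes, and expressed mesenchymal genes (Dcn at 28389 CPM, Col1a1 at 3474 CPM) with both tendon genes (Fmod at 3162 CPM, Thbs4 at 2780 CPM) and Prg4 (3686 CPM), and it was left with no narrower name than mesenchymal-like. It carried 48.6% of S100g UMIs (257 CPM), 50.2% of Aldh3a1 (185 CPM), 40.4% of Fgf9 (168 CPM), 40.3% of Clu (3462 CPM) and 27.2% of Galnt15 (180 CPM). S100a5 was divided between cluster 2, tendon fibroblast-like with Angptl7 and Mt3 among its leading genes (41.1%, 80.7 CPM), and cluster 6 (39.9%, 85.7 CPM).

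Other clusters led for the remaining members. Sbsn was highest in cluster 13, a mesenchymal-like cluster of 408 P56 cells with Crabp2 and Cyp21a1 among its leading genes, which held 56.9% of its UMIs (793 CPM) with a UMI in 90.2% of cells. The same cluster held 46.2% of Npy UMIs, but 576 of those 765 UMIs were in the 1 cell named above, and without that cell cluster 6 led with 29.9%. Cytl1 and Dmkn were highest in the 41 P56 cells of cluster 9, at 10527 CPM (66.8% of Cytl1 UMIs) and 589 CPM (53.8% of Dmkn UMIs). Both were concentrated in few cells, as the 10 highest P56 cells of each gene held 50.6% of Cytl1 and 70.3% of Dmkn UMIs. Those 41 cells, osteoblast-like by the markers of the whole cluster, expressed bone genes (Spp1 at 25485 CPM, Bglap at 3211 CPM, Ibsp at 2620 CPM) together with cartilage genes (Col2a1 at 1733 CPM, Acan at 784 CPM), Fmod at 1419 CPM and Prg4 at 8265 CPM, and had a median of 8445 UMIs against 6057 over all P56 cells. In them Npy was at 631 CPM, Sbsn at 619 CPM and Clu at 5659 CPM. Galnt15 (122 CPM, 58.5% of cells) and Aldh3a1 (104 CPM, 53.7% of cells) were also above their whole-library levels there, whereas S100g had 1 UMI and S100a5 none.

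**Figure D3:**
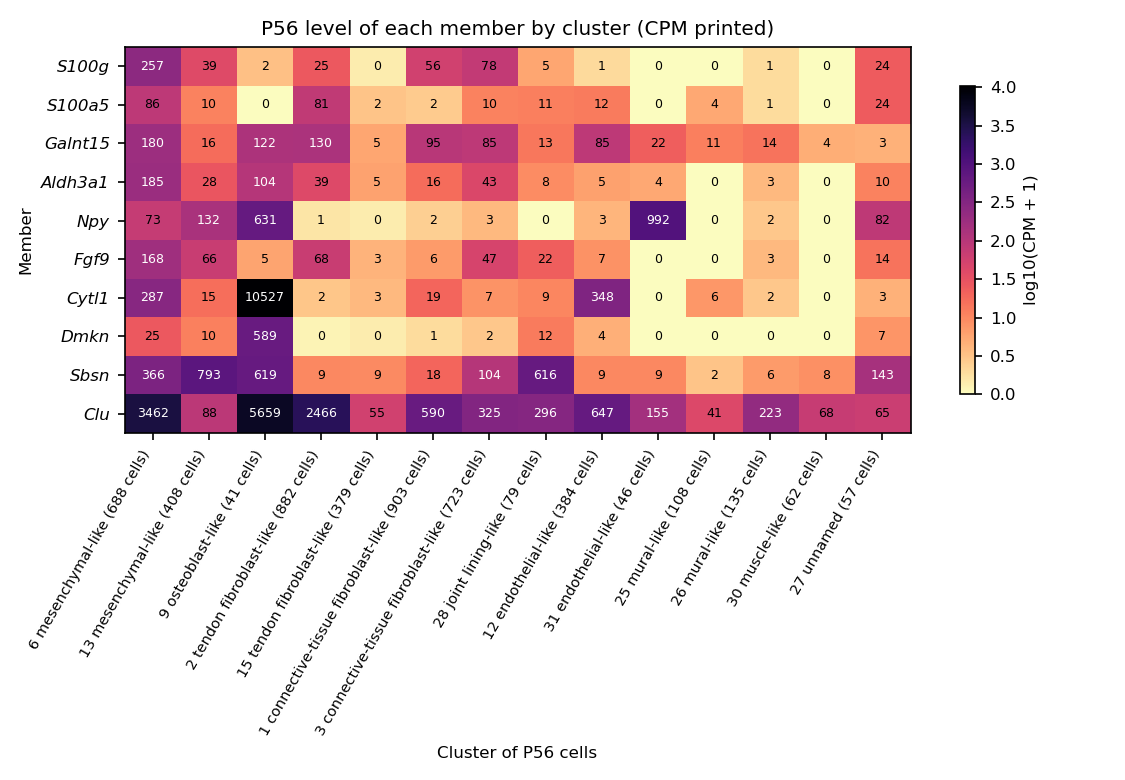
CPM of each member (rows) in the 14 clusters with at least 20 P56 cells (columns, with the class and the number of P56 cells), coloured by log10(CPM + 1) with the CPM printed. Cluster 6 is above the whole-library P56 level for every member, cluster 9 for Cytl1, Dmkn, Npy, Sbsn, Clu, Galnt15 and Aldh3a1, and clusters 15, 25, 26 and 30 are below it for every member. In cluster 6 few cells had a UMI of Dmkn (1.74%), Cytl1 (6.54%) or Npy (6.69%).

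Endothelial-like cells carried Cytl1 and Npy at P56 besides the Galnt15 described above. Cytl1 was at 348 CPM in cluster 12 (661 UMIs in 43 of 384 cells, 225 of them in 1 cell), where it had 0 UMIs in 68 cells at P11. Npy was at 992 CPM in cluster 31 (224 UMIs in 16 of 46 cells), which led with Ccl21a, Mmrn1 and Flt4, genes of lymphatic vessels, and this was the highest Npy level of any P56 cluster. The endothelial markers Pecam1 and Cdh5 were at 1146 and 754 CPM in cluster 12 and at 407 and 385 CPM in cluster 31. The lowest levels were in tendon fibroblast-like cluster 15 (379 cells, Col22a1 among its leading genes), mural-like cells and muscle-like cells: in cluster 15 Clu was at 54.7 CPM, Galnt15 at 4.56 CPM and S100g at 0.415 CPM.

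A cluster with some of the same leading genes as cluster 6 was present at the young ages. Tendon fibroblast-like cluster 10 (230 P11 and 260 P18 cells, led by Barx2, Egln3, Gdf5 and Atp6v0a4) was at 757 and 2764 CPM for Clu, 43.4 and 55.6 CPM for Aldh3a1, 38.7 and 82.3 CPM for Fgf9 and 44.8 and 99.3 CPM for Sbsn at P11 and P18. In it Npy was at 2.15 CPM at P11 and 43.6 CPM at P18, Galnt15 at 0.358 and 5.26 CPM, and S100g had 0 UMIs at either age. Levels within a class could differ in direction from the total, and different clusters made up the same class at P11 and P56. Sbsn in connective-tissue fibroblast-like cells was at 116 CPM at P11 (cluster 0) and 62.2 CPM at P56 (mostly clusters 1 and 3), although its total was 4.34-fold higher; at P56, 77.0% of its UMIs lay in the mesenchymal-like clusters 6 and 13.

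Across the 14 clusters, the genes whose log2(CPM + 1) followed the mean standardised level of the members most closely, of 10768 genes ranked, were Tiam2 (Pearson r = 0.88), Epha5, Dhrs9, Pcolce2, Alox12, Sgms2, Fmn1, Sdk2, Spaca1 and Nr1d1 (r = 0.83). The 14 points share 1 library, and their depths differ. Most of these genes differed little between P11 and P56 or were lower at P56. Pcolce2, an enhancer of procollagen processing (232 and 996 CPM at P11 and P56), and Nr1d1, a repressor of the circadian clock (33.8 and 185 CPM), were above 4-fold. Tiam2 was at 25.4 and 28.3 CPM and Sgms2, a sphingomyelin synthase gene, at 71.8 and 88.3 CPM. The other 6 were lower, with log2 ratios from -0.07 (Dhrs9) to -1.03 (Epha5). Among single members, Galnt15 and Clu had each other as the most alike gene of all (r = 0.89), Dmkn had Cytl1 (r = 0.86), S100g had Rspo1 (r = 0.93), which encodes an enhancer of Wnt signalling, and Sbsn had Cyp3a13 (r = 0.97). The correlation between members ranged from -0.11 (S100a5 with Npy) to 0.89.

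Within cells, some members were found together more often than others. Over 43 pairs with at least 1 expected cell at P56, the median ratio of observed to expected cells with both members was 1.44, with 30 pairs above 1 and 11 above 2. S100g and Aldh3a1 were found together in 42 cells against 14.5 expected (2.89-fold), S100g and Galnt15 in 59 against 26.8 (2.20-fold), Aldh3a1 and Fgf9 in 64 against 26.2 (2.44-fold), and S100a5 and Fgf9 in 25 against 11.2 (2.23-fold). Npy, Cytl1, Dmkn and Sbsn were found with one another: Dmkn and Sbsn, the chromosomal neighbours, in 24 cells against 3.81 (6.30-fold), Npy and Cytl1 in 18 against 2.13 (8.47-fold), and Npy and Sbsn in 31 against 8.85 (3.50-fold). Of 31 cells with Dmkn, 24 thus also had Sbsn. Aldh3a1 was above expectation with all 9 others, among them Npy (15 cells against 5.60) and Cytl1 (27 against 10.8). Below expectation, Fgf9 and Cytl1 were together in 2 cells against 9.95 expected (0.201), and Sbsn and Clu in 195 against 263 (0.741). The ratios are a description of 1 library, and cells are not replicates. They were not computed for pairs of other genes, so whether these counts are particular to the members was not tested.

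**Figure D4:**
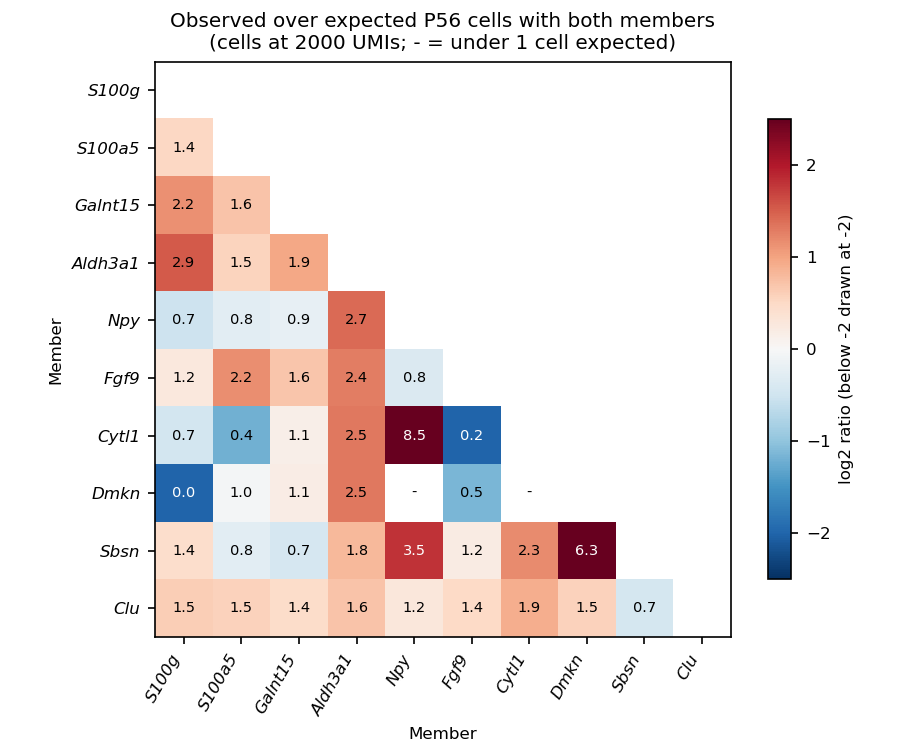
Ratio of observed to expected P56 cells with both members of a pair, expected from the product of the 2 shares, with each of 4709 cells thinned to 2000 UMIs; colour is log2 of the ratio, and a dash marks a pair with under 1 cell expected. The pairs shown among Npy, Cytl1, Dmkn and Sbsn are above 2, those of Aldh3a1 are all above 1, and Fgf9 with Cytl1 is at 0.201.

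Within cluster 6 alone (672 cells at this depth) the median ratio was 1.03, and outside it 1.43. By the median, pairs were thus near independence inside the cluster with the largest share of member UMIs. Single pairs still departed from it in both directions: Cytl1 and Sbsn were together in 16 cells against 5.73 expected, and all 8 cells with Dmkn had Sbsn (1.24 expected), whereas Fgf9 and Cytl1 were together in 1 cell against 9.14 and S100g and Fgf9 in 11 against 21.0.

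On the Gli1-lineage plates, 647 wells passed the filter with 235722 to 506912 counts per plate. Of the 10 members, 9 had at least 1 count at P28 or P42; Dmkn had none, and 1 count in all (at P11). With at least 2 counts summed over the plate required, 7 members were left, without S100g and S100a5. Over the 7 plates S100g had 9 counts, S100a5 5, Npy 9, Galnt15 33, Sbsn 43, Fgf9 49, Aldh3a1 58, Cytl1 172 and Clu 2677. The P28 and P42 plates together held 23 of the Sbsn counts against 4 on the P7 and P11 plates, 10 against 3 for Galnt15 and 698 against 359 for Clu. Raw counts were fewer on the later plates for Aldh3a1 (13 against 18), Fgf9 (12 against 23) and Cytl1 (49 against 70). The later plates also had fewer counts in all, 235722 and 315830 at P28 and P42 against 449917 and 350791 at P7 and P11. Scaled to CPM, Cytl1 was at 21.2 and 139 CPM against 124 and 39.9 CPM. Aldh3a1 was at 33.9 and 15.8 CPM against 17.8 and 28.5 CPM, and Fgf9 at 29.7 and 15.8 CPM against 35.6 and 20.0 CPM. For Aldh3a1 and Cytl1 the raw order therefore does not show lower levels. S100g was not counted at P7, P11 or P14, had 5 counts in 1 well at P18, 3 counts in 3 wells at P21, 1 count at P28 and none in the 86 wells at P42, which allows a share of up to 3.49% of wells. Galnt15 was in 1 of 96 wells at P7, 1 of 95 at P11, 1 of 94 at P14, 6 of 94 at P18, 5 of 93 at P21, 6 of 89 at P28 and 1 of 86 at P42. Sbsn was in 1 to 3 wells per plate up to P18, 7 at P21, 3 at P28 and 8 at P42, where its 15 counts (47.5 CPM) were the most on any plate.

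**Figure D5:**
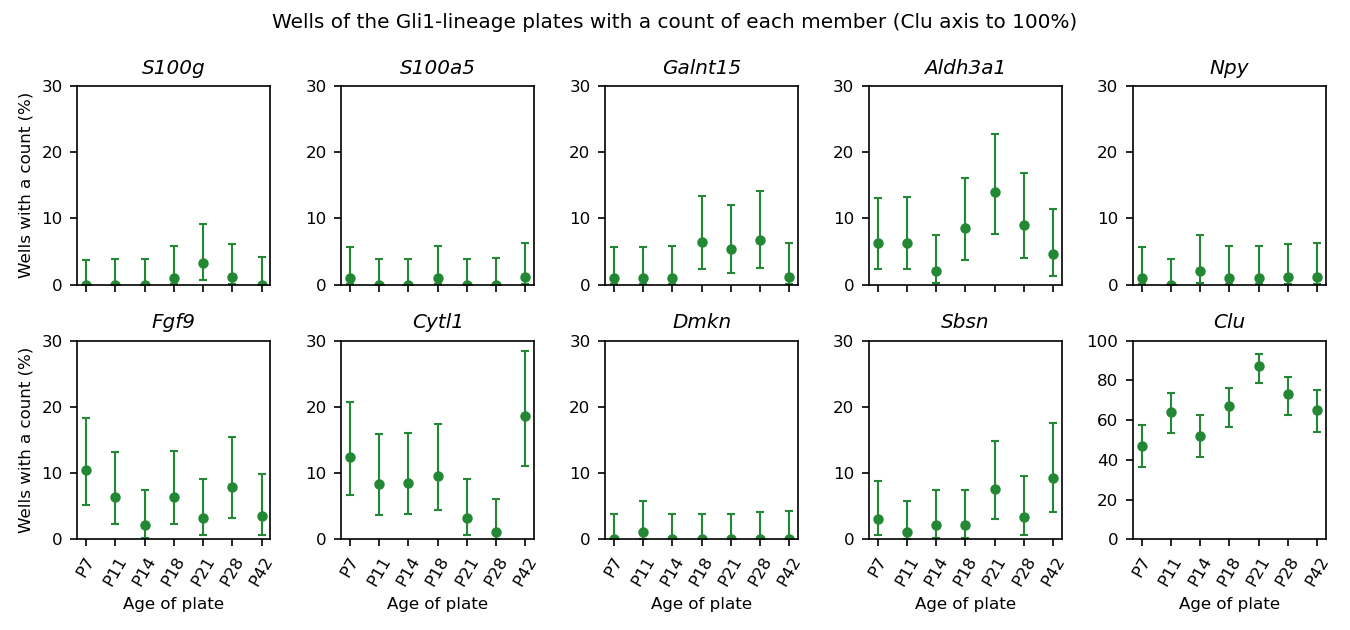
Percentage of wells with at least 1 count of each member on the 7 Gli1-lineage plates, with exact Clopper-Pearson 95% intervals; the axis runs to 30%, and to 100% for Clu. Clu is found in 46.9% of wells at P7 and 87.1% at P21, Cytl1 in 1.12% at P28 and 18.6% at P42, and S100g in 0 to 3.23% of wells.

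Aldh3a1 was counted on every plate, at 3.95 CPM (P14) to 48.4 CPM (P21), and Fgf9 at 3.95 CPM (P14) to 35.6 CPM (P7), both already at P7 and P11. Clu was at 300, 639, 448, 1026, 3214, 1905 and 788 CPM from P7 to P42, highest at P21. Cytl1 was at 124, 39.9, 61.2, 49.1, 9.68, 21.2 and 139 CPM, highest at the earliest and latest ages; 39 of its 56 counts at P7 lay in 1 well. A slope on log2 age was fitted over all genes with edgeR's quasi-likelihood test. It called 0 of 4390 genes at an adjusted p under 0.05 (0% called), with 427 at an unadjusted p under 0.05; DESeq2 on the same genes called 95, and neither called a member. Only Clu and Cytl1 had the counts to be tested. The Clu slope was 0.99 per log2 unit of age, on the log2 scale, with an SE of 0.49 and an edgeR adjusted p = 0.55. The Cytl1 slope was -0.14 with an SE of 0.36 and an edgeR adjusted p = 0.941, which was positive without the P7 plate (0.61, edgeR adjusted p = 0.679). Plate and droplet levels come from different chemistries and depths and were not compared.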

How the data were processed

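The members and the gene lists were chosen with earlier results of these data known. The whole-enthesis files hold UMI counts per gene and cell, made by the authors with droplet software version 3.1.0 (P11, P18) and 3.0.2 (P56), per the file headers. The plate files hold UMI or read counts per gene and well, deposited as whole numbers; their counter and whether UMIs were collapsed are not given in the sources used here. The build was mm10, per the submitters' processing notes. Pooled 3′-end libraries were made, per the labels' protocols.

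Cells and wells needed 500 or more genes, and mitochondrial counts of 10% or less. The doublet caller of scanpy 1.11.5 marked 0.0185% to 0.0780% of cells, too few to trust, so cells with the highest doublet scores were removed at 0.8% per 1000 cells (70, 233 and 211). Totals before filtering were 44104990, 53725468 and 40082499 UMIs in 3263, 5588 and 5520 barcodes. The 3 libraries were clustered together (Leiden, resolution 1, 30 components, 15 neighbours) on variable genes without the members, and clusters were named from marker lists. A name needed at least 3 detected markers raised over all other cells, and no other class with more markers among the 10 leading genes. Clusters without such a name that expressed broad mesenchymal genes were called mesenchymal-like. Levels are CPM of summed UMIs with exact Poisson 95% intervals. Plates were summed per age and tested with edgeR 4.0.16 (TMM, genes with at least 10 counts in 4 libraries, Benjamini-Hochberg at 0.05), checked on simulated data; DESeq2 1.42.0 was an alternative, as were other filters, thinning depths and clusterings. Genes named were the members, context genes with at least 100 UMIs that differed at least 4-fold, 1 receptor per ligand by P56 level and the 10 genes most alike across clusters; Vdr, S100a4, S100a6, Aldh3a2, Dpp4, Krtdap, Lor, Krt1, Apoe and Vldlr were named after their values were seen. Gene models were GENCODE's for GRCm38. Count 0 allows 3 counts of the total.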

Additional observations from a re-analysis of the deposited data

Results flagged for a closer look

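Several members differed in direction between cell classes when P56 was set against P11 (log2 ratio of CPM, 1 library per age, so the difference was not tested), and the clusters that make up a class differed between the ages. S100g was lower in mural-like cells (-5.50, 14 UMIs at P11, all in 1 cell, and 1 at P56) and higher in connective-tissue fibroblast-like cells (8.01). Fgf9 was lower in osteoblast-like cells (-1.85, 31 and 2 UMIs, with a counting interval of -4.95 to 0.13 that includes no difference) and higher in the mesenchymal-like clusters that carry no narrower name (3.75). Cytl1 was lower in those mesenchymal-like clusters (-2.89) and higher in osteoblast-like cells (9.38). The former value sets mostly cluster 22 at P11, with 6 chondrocyte markers raised, against clusters 6 and 13 at P56. Dmkn was lower in tendon fibroblast-like cells (-2.15, 17 and 2 UMIs) and higher in osteoblast-like cells (8.49, with 0 UMIs at P11 taken at the limit of 3 counts). Sbsn was lower in tendon fibroblast-like cells (-1.09, 261 and 64 UMIs) and higher in osteoblast-like cells (5.69). The osteoblast-like class is cluster 9, which had 5 osteoblast and 5 chondrocyte markers raised. Its 41 P56 cells also expressed cartilage genes and Prg4, so these ratios may not compare like cells.

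The log2 ratio of P18 to P11 for Aldh3a1 differed in sign between the plates (-0.14) and the whole-enthesis mesenchymal classes (0.36). The plate value rests on 10 counts at each age and shows no direction, over all droplet cells the ratio was -0.92, and the difference was not tested.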

How the results depend on the processing

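No paired analysis was possible because there is only 1 library at an age and no replicate numbers are given. The count of members at least 4-fold higher at P56 than at P11 was 6 or 7 under other cell filters, without doublet removal, in the mesenchymal classes, as a mean over cells (where Clu replaced Sbsn) and, chosen after seeing the data, without the highest cell of each member; it was 10 at 2-fold and 2 when P18 had to lie between. The median share of P56 cells with a member, 5.56% at 2000 UMIs, was 3.26% at 1000 UMIs, 9.02% at 4000, 11.6% without thinning and 6.57% at 2000 UMIs with the stricter cell filter; the cause of the last was not tested. The median co-detection ratio, 1.44, was 1.60 at 1000 UMIs and 1.34 to 1.43 in the 4 other alternatives. The share of member UMIs in the leading cluster, 34.9%, was 55.9% at resolution 0.5, 36.5% with P56 clustered alone and 45.8% with members kept among the variable genes, where the leading cluster, of 713 P56 cells, also led for Cytl1 (75.6%) and Dmkn (77.2%), and 34.7% at resolution 2; without Clu, an alternative chosen after seeing the data, it was 27.1%. Slope calls numbered 95 with DESeq2 and 307 without the filter on low counts, where all 10 members were tested and 0 called; the cause was not tested. They numbered 0 otherwise, 0 to 0 with each plate left out. The Cytl1 slope, -0.14, became 0.02 with the looser well filter and 0.27 with file layout as a term, and ran from -1.40 to 0.61 with each plate left out; that of Clu ran from 0.64 to 1.55. At 2000 UMIs, Dmkn and Npy were seen in 31 and 72 cells at P56, which limits every ratio that rests on them.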
